A study of Homo sapiens with 6 samples.

Results

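RAB proteins are small GTPases that mark the membranes of the cell. In the GTP-bound form, which exchange factors produce, a RAB protein sits on a vesicle or organelle and recruits effectors such as tethers and motor adaptors, and GTPase-activating proteins return it to the GDP-bound form. The RAB3 proteins mark secretory vesicles and act in regulated exocytosis together with SNARE proteins and calcium sensors. In pigment cells, RAB proteins are best known for moving melanosomes and their cargo, and the 3 members with that established role, RAB27A, RAB32 and RAB38, are not described here.

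The RAB genes were taken from the count table as protein-coding genes whose symbol is RAB, a number and at most 2 further letters or digits. This rule gave 63 of 60504 genes in the table and of 19664 protein-coding genes. RAB3IP and RAB5IF match the symbol pattern but do not encode GTPases, so 61 RAB GTPase genes are described, 4 of them of the RAB3 subfamily. RNA was measured in SK-MEL-28, an established human melanoma cell line, in 3 libraries labelled EV (cells given an empty plasmid, genotype given as control) and 3 libraries labelled HDAC8 (cells given a plasmid for HDAC8, a class I lysine deacetylase, genotype given as forced expression). Both kinds of cells were kept in hygromycin according to the study's methods, which do not say whether they are clones or pools, and the labels number the biological replicates without saying whether they came from separate transfections, so p-values measure the spread between these libraries. The comparison asks how gene expression differs when HDAC8 is introduced.

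Library totals were 20850021 to 29822903 estimated counts, and 3 counts, taken as the lowest detectable level, corresponded to 0.101 to 0.144 CPM of the library total. All other levels are CPM on TMM-adjusted library sizes. The HDAC8 gene itself averaged 14.5 ± 2.48 CPM under the EV label and 14.3 ± 0.881 CPM under the HDAC8 label (SD, n = 3 each), with a log2 fold change of -0.024 (edgeR adjusted p = 0.924). The introduced gene therefore did not separate the groups, and higher and lower below refer to the HDAC8 label relative to the EV label. The 6 melanocyte lineage markers were present in every library, with a summed level of 6241 to 6613 CPM under EV and 7424 to 7945 CPM under HDAC8. PMEL made up most of this sum, at 4149 ± 152 CPM under EV and 5254 ± 272 under HDAC8 (SD, n = 3 each). The markers did not move together, with positive log2 fold changes for TYR (0.44), PMEL (0.34) and SOX10 (0.23). Those of S100B (-0.28), MITF (-0.14) and MLANA (-0.077) were negative. Of 10 markers of keratinocytes, other epithelia, immune cells, endothelium and fibroblasts, 9 stayed below 1 CPM in every library, CD3E was at 0 throughout, and LUM, encoding the matrix proteoglycan lumican, made up nearly all of their summed 35.6 to 38.1 CPM under EV and 49.1 to 52.5 CPM under HDAC8. The part of these shifts in the results below was not tested. In bulk RNA, fewer cells that express a gene and less of its RNA per cell cannot be told apart.

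Within the RAB3 subfamily, the libraries labelled EV expressed RAB3B with almost no RAB3D, and those labelled HDAC8 expressed RAB3D with almost no RAB3B. RAB3A was present in both, and RAB3C was at or near the limit of detection in both. RAB3B fell 21-fold and RAB3D rose 10.7-fold, the largest changes in each direction among the 48 RAB GTPase genes that could be tested. The counts behind these changes are shown first, gene by gene.

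RAB3B (ENSG00000169213, minus strand of chromosome 1, 51907956 to 51990700 of GRCh38) encodes a RAB3 protein of secretory vesicles in endocrine, epithelial and neuronal cells. Its counts were 293, 296 and 344 under EV and 16, 7 and 24 under HDAC8. The groups were far apart, and the highest library labelled HDAC8 held 1.03 CPM against 13.4 CPM in the lowest library labelled EV. The mean fell from 13.7 ± 0.316 to 0.641 ± 0.355 CPM (SD, n = 3 each), a log2 fold change of -4.39 ± 0.26 (SE, edgeR adjusted p = 2.52e-07). It was the 16th most negative log2 fold change of all 16195 genes tested.

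RAB3D (ENSG00000105514, minus strand of chromosome 19, 11322068 to 11346270) encodes the RAB3 protein known from zymogen granules and other large secretory granules of exocrine cells. Its counts were 14, 13 and 23 under EV and 214, 166 and 188 under HDAC8. All 3 libraries labelled HDAC8, at 7.27 to 8.19 CPM, lay above all 3 labelled EV, at 0.587 to 0.936 CPM. The log2 fold change was 3.42 ± 0.24 (SE, edgeR adjusted p = 1.12e-06), the 46th most positive of all genes tested. RAB3D shares genomic sequence with TMEM205 on the same strand, which had a mean of 217 counts and a log2 fold change of 0.15, and with CCDC159 on the opposite strand, which had a mean of 29.5 counts and a log2 fold change of -0.63.

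RAB3A (ENSG00000105649, chromosome 19, 18196784 to 18204042) encodes the main RAB3 protein of synaptic vesicles. Its level was 8.40, 5.87 and 7.57 CPM in the libraries labelled EV and 8.18, 10.4 and 7.41 CPM in those labelled HDAC8, so the groups overlapped (log2 fold change 0.25 ± 0.18 SE, edgeR adjusted p = 0.370). It overlaps MPV17L2 on the opposite strand, with a mean of 307 counts and a log2 fold change of 0.035. RAB3C (ENSG00000152932, chromosome 5), a second neuronal RAB3 gene, had 3, 2 and 1 counts under EV and 4, 3 and 0 under HDAC8, and was too low to be tested.

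**Figure D1:**
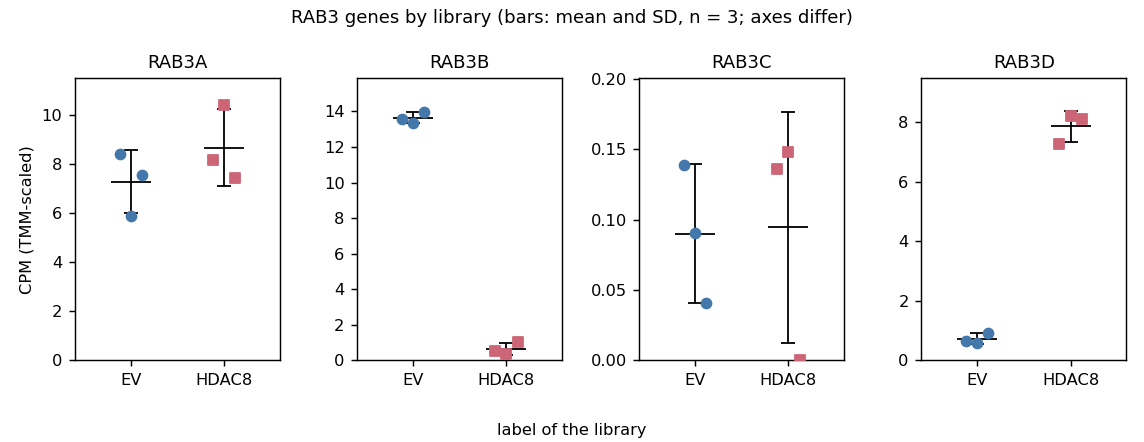
Level of each RAB3 gene in CPM (vertical axes, which differ between panels and start at 0) in the 3 libraries labelled EV (circles) and the 3 labelled HDAC8 (squares), with mean and SD. RAB3B lies near 13.7 CPM under EV and below 1.1 CPM under HDAC8, RAB3D shows the opposite order, and the groups overlap for RAB3A and RAB3C.

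Genes of different length can be compared only per length, and the canonical transcripts differ from 12780 bases for RAB3B to 4240 for RAB3D and 1496 for RAB3A. In CPM per kilobase of that transcript, RAB3A was the most abundant RAB3 gene in every library, at 4.87 ± 0.862 under EV and 5.80 ± 1.04 under HDAC8 (SD, n = 3). RAB3B stood at 1.07 ± 0.0247 under EV and RAB3D at 1.85 ± 0.121 under HDAC8. Per length, RAB3B made up 15.5%, 20.4% and 17.2% of the summed RAB3 level in the libraries labelled EV and at most 1.17% in those labelled HDAC8. The share of RAB3D was 2.24%, 2.70% and 3.46% under EV and 23.7%, 21.6% and 27.5% under HDAC8. The summed RAB3 level was 6.12 ± 0.894 CPM per kilobase under EV and 7.71 ± 1.07 under HDAC8, with 6.85, 5.12 and 6.38 in the libraries labelled EV all below 7.24, 8.94 and 6.95 in those labelled HDAC8. In counts, neither divided by length nor scaled for depth, the sum was lower on average under HDAC8. It was 495 ± 56.6 under EV and 415 ± 51.7 under HDAC8 (SD, n = 3 each). The direction of the summed difference therefore depended on the measure, and no test of either sum was made. The levels per length assume that the canonical transcript is the one expressed, and a shorter form of RAB3B would raise its share.

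**Figure D2:**
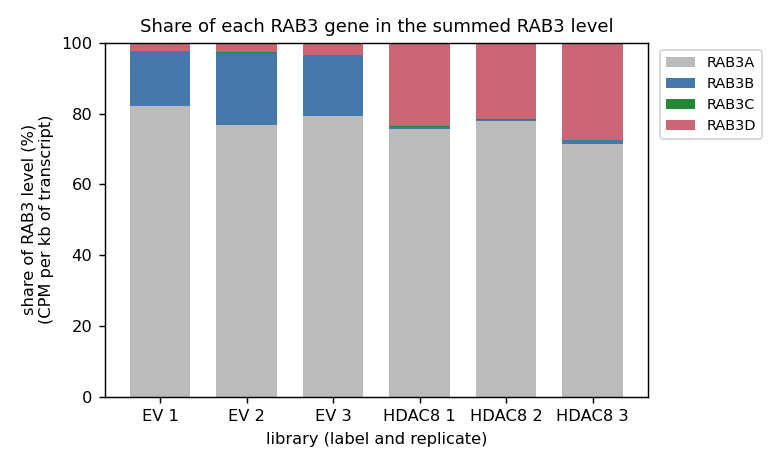
Share of each RAB3 gene (percent of the summed RAB3 level in CPM per kilobase of canonical transcript) in each library. RAB3A holds 71.3% to 82.0% in all 6 libraries, and the remainder is mostly RAB3B under EV and mostly RAB3D under HDAC8.

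The sequences just upstream of the start sites of the RAB3 genes are shown because these genes differed so strongly between the groups. Each is the 250 bases before the RefSeq start site in GRCh38.p14, 5′ to 3′ on the strand of the gene, with CG dinucleotides in capitals. The windows are chr1:51990701-51990950 for RAB3B, chr19:11339658-11339907 for RAB3D and chr19:18204043-18204292 for RAB3A, all on the minus strand.
RAB3B: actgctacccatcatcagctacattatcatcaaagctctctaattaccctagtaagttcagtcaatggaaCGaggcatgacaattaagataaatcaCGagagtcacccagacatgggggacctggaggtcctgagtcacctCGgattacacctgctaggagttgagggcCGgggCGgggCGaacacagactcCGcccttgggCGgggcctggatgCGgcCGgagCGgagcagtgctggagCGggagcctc
RAB3D: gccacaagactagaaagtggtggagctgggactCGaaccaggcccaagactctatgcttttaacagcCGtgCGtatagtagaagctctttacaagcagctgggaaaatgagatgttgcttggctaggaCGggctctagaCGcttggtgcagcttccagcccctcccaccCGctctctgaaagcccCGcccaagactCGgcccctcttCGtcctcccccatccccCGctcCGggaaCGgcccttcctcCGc
RAB3A: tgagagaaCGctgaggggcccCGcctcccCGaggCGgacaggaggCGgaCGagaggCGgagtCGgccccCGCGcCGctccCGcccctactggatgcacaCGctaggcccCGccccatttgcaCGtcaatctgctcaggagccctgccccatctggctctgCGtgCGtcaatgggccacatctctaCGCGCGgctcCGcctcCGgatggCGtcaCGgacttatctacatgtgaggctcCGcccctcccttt
The windows of RAB3B and RAB3D held 12 and 13 CG dinucleotides, close to the median of 11 over 27305 RefSeq promoters, and that of RAB3A held 25. The start of the RAB3D gene in GENCODE 44 lies 6613 bases upstream of the RefSeq start, and which start was used in these cells was not tested.

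Since the study concerns JUN and MITF, the upstream windows of the 49 RAB genes with an entry were searched on both strands for TGANTCA, the AP-1 motif bound by JUN-containing dimers, and for CACGTG, the E-box core bound by MITF and other factors. TGANTCA was found in the windows of RAB3B and RAB5B, 2 of 49, and in 6.60% of all 27305 windows. The match of RAB3B lies at positions -119 to -113 from the start (chr1:51990813-51990819, minus strand), and that of RAB5B at -210 to -204 (chr12:55973739-55973745, plus strand). They are printed with 6 flanking bases on each side and the motif in capitals.
RAB3B: aggtccTGAGTCAcctcgg
RAB5B: tgtttaTGAGTCAaaaggc
CACGTG was found in 5 of the 49 windows, those of RAB4A, RAB5A, RAB21, RAB24 and RAB31, and in 6.49% of all windows. A match of letters is not evidence of binding. RAB3B and RAB5B had log2 fold changes of -4.39 and 0.35, and whether the motif has a part in them was not tested.

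Across the family, 48 of the 61 RAB GTPase genes passed edgeR's filter on low counts. Genes were called by the quasi-likelihood test of edgeR with Benjamini-Hochberg adjustment, requiring an adjusted p below 0.05 and a log2 fold change past 0.58 in either direction. By both, 1 RAB gene was higher (RAB3D) and 5 were lower (RAB3B, RAB39A, RAB20, RAB9B and RAB36) in the libraries labelled HDAC8, where 4.07% of all tested genes were higher and 3.45% lower. The 6 called genes are 12.5% of the 48, against 7.52% of all tested genes. By the adjusted p alone, 4 RAB genes were higher and 14 lower, against 11.1% and 11.7% of all tested genes, and without EV replicate 1 these were 3 and 8. The groups did not overlap for 7 of the 48 RAB genes with HDAC8 above EV (14.6%) and for 17 with HDAC8 below EV (35.4%). Over all tested genes these shares were 18.7% and 19.4%, so such separation was common. Most differences were small, with 36 of the 48 log2 fold changes within 0.3 of 0. Their median was -0.042, against 0.0091 for all tested genes.

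**Figure D3:**
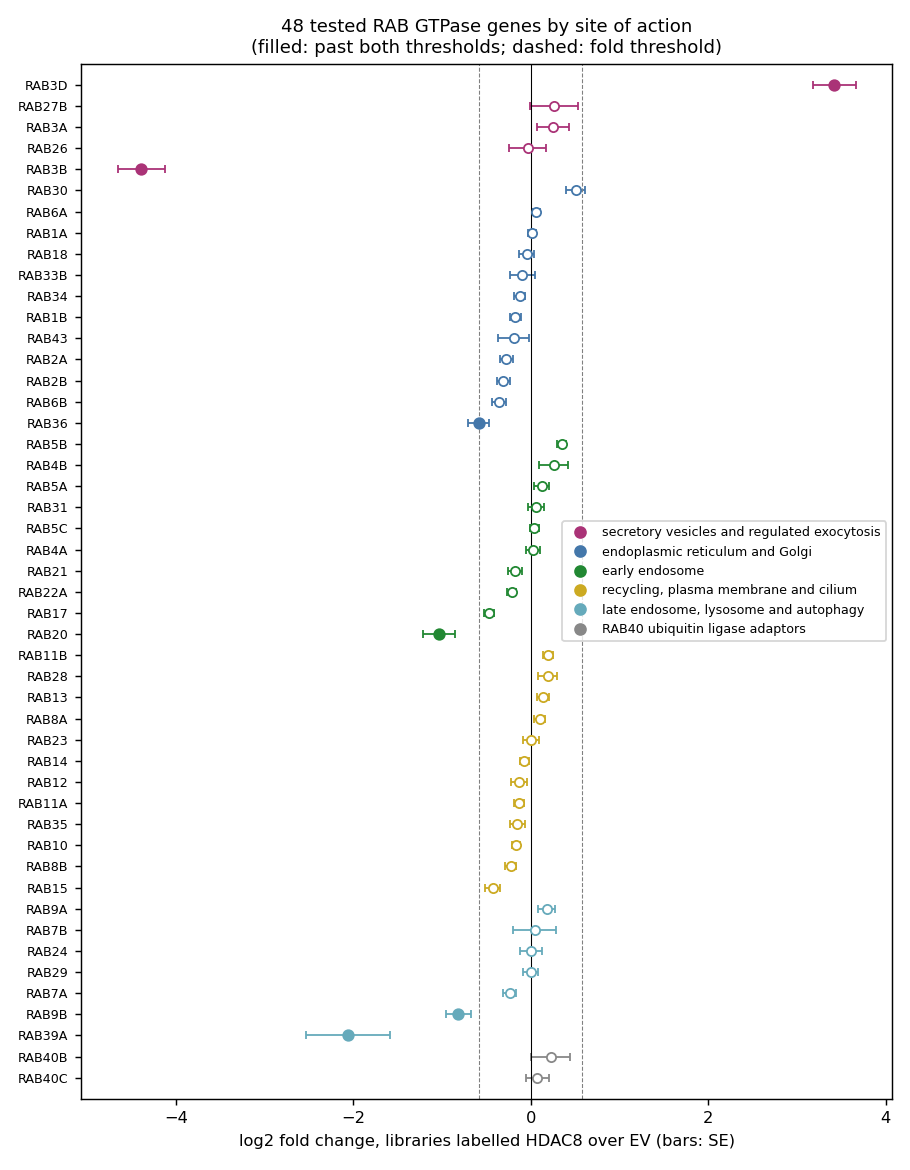
Log2 fold change (horizontal axis, libraries labelled HDAC8 over EV) with its standard error for the 48 tested RAB GTPase genes, grouped by the site where the protein acts. RAB3D at 3.42 and RAB3B at -4.39 stand far from the remainder, which lies between -2.06 and 0.51, and filled points passed both thresholds.

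Among RAB genes of secretory vesicles, 5 of 7 were tested, and only RAB3B and RAB3D passed both thresholds, as did 7.52% of all tested genes. RAB27B, a paralogue of RAB27A that docks secretory granules, was low at 2.49 ± 0.545 CPM under EV and 2.99 ± 0.499 under HDAC8 (SD, n = 3 each), with a log2 fold change of 0.26. RAB26, also a secretory granule protein, had a log2 fold change of -0.037. Neither passed the adjusted p.

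RAB genes of the late endosome, lysosome and autophagy included 2 of the lower genes among 7 tested, where 3.45% of all tested genes were lower. RAB39A (ENSG00000179331, chromosome 11, 107928448 to 107963482), a RAB of late endosomes and phagosomes, had 22, 24 and 27 counts under EV and 5, 6 and 7 counts under HDAC8. It was low throughout, yet the groups did not overlap, and its log2 fold change was -2.06 ± 0.47 (SE, edgeR adjusted p = 0.00780). RAB9B (ENSG00000123570, X chromosome, 103822327 to 103832257), a paralogue of the late endosome to Golgi transport protein RAB9A, had 13.1, 12.8 and 14.4 CPM under EV and 6.45, 7.60 and 8.92 CPM under HDAC8. Its log2 fold change was -0.82 ± 0.14 (SE, edgeR adjusted p = 0.00122). RAB9A, also on the X chromosome, was more abundant, and its log2 fold change of 0.18 did not pass the test (edgeR adjusted p = 0.208). Per length, RAB9A stood at 11.0 ± 0.976 and RAB9B at 3.56 ± 0.234 CPM per kilobase under EV, and at 12.4 ± 1.03 and 2.03 ± 0.328 under HDAC8 (SD, n = 3 each).

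RAB7A, which directs traffic to lysosomes, had the highest level per length of the RAB genes under EV, at 116 ± 1.24 CPM per kilobase, while under HDAC8 it stood at 98.3 ± 11.6, below RAB6A at 106 ± 2.58 (SD, n = 3 each). In CPM it stood at 253 ± 2.71 under EV (SD, n = 3) and at 227, 231 and 186 under HDAC8, so the groups did not overlap and HDAC8 replicate 3 was the lowest. Its log2 fold change of -0.24 passed the adjusted p of edgeR (0.0338) and not the fold threshold, and without HDAC8 replicate 3 it was -0.15 (edgeR adjusted p = 0.0123). It no longer passed without EV replicate 1, 2 or 3 (edgeR adjusted p = 0.103, 0.0785 and 0.112).

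Among the RAB genes of early endosomes, all 10 were tested and RAB20 was lower at both thresholds, where 3.45% of all tested genes were lower. RAB20 (ENSG00000139832, chromosome 13, 110523066 to 110561722), known from endosome and phagosome maturation and as a hypoxia-induced gene, had 8.59, 8.99 and 7.04 CPM under EV and 4.52, 3.65 and 3.79 CPM under HDAC8. The groups did not overlap, and the log2 fold change was -1.03 ± 0.18 (SE, edgeR adjusted p = 0.00122). The products of the 3 RAB5 genes control fusion of early endosomes. RAB5B was higher by the adjusted p, at 248, 226 and 236 CPM under EV and 288, 306 and 310 CPM under HDAC8, a log2 fold change of 0.35 (edgeR adjusted p = 0.000378), which is below the fold threshold. RAB5C, the most abundant early endosome member per length, and RAB5A had log2 fold changes of 0.041 and 0.12 that did not pass the test, and whether RAB5B differed from them in its change was not tested. RAB17, a RAB of epithelial and melanocytic recycling endosomes, had a log2 fold change of -0.47 (edgeR adjusted p = 0.000139), with 64.9 to 69.0 CPM under EV and 46.5 to 50.1 CPM under HDAC8.

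Of the 17 RAB genes of the endoplasmic reticulum and Golgi, 12 were tested. RAB36 (ENSG00000100228, chromosome 22, 23145366 to 23165663), related to the Golgi protein RAB34, had 13.5, 12.4 and 12.9 CPM under EV and 8.32, 7.90 and 9.57 CPM under HDAC8. Its log2 fold change of -0.59 ± 0.12 (SE, edgeR adjusted p = 0.00394) lay just past the fold threshold, and it fell short of that threshold without EV replicate 1 (-0.56), HDAC8 replicate 1 (-0.57) or HDAC8 replicate 2 (-0.54). RAB6A, a Golgi RAB and the most abundant of this group per length, had 330 to 348 CPM under EV and 345 to 362 CPM under HDAC8, and its log2 fold change of 0.060 did not pass the test. Its neuronal paralogue RAB6B, which overlaps SRPRB on the opposite strand, was lower by the adjusted p alone, with a log2 fold change of -0.35 (edgeR adjusted p = 0.00721), and RAB2A and RAB2B (overlapping TOX4 on the opposite strand), which act between the endoplasmic reticulum and Golgi, had log2 fold changes of -0.27 and -0.31 that passed it as well. Without EV replicate 1 neither passed (edgeR adjusted p = 0.0898 and 0.0609), nor did RAB2A without EV replicate 3 (edgeR adjusted p = 0.0872). RAB30, a Golgi RAB, was the opposite case, at 9.56 to 11.1 CPM under EV and 14.3 to 15.7 CPM under HDAC8 (log2 fold change 0.51, edgeR adjusted p = 0.00521).

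**Figure D4:**
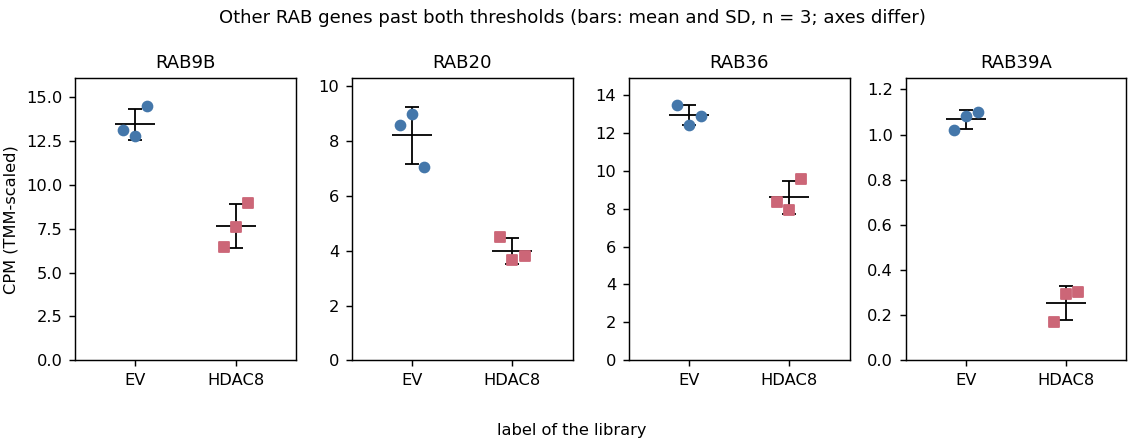
CPM (vertical axes, which differ between panels and start at 0) of RAB9B, RAB20, RAB36 and RAB39A in the 3 libraries labelled EV (circles) and the 3 labelled HDAC8 (squares), with mean and SD. In all 4 panels the libraries labelled HDAC8 lie below those labelled EV, by 4.18-fold for RAB39A and less for the others.

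Of the 12 tested RAB genes of recycling, plasma membrane and ciliary traffic, 0 passed both thresholds with edgeR or DESeq2, 4 passed edgeR's adjusted p and 5 had an unadjusted p below 0.05, where 7.52% of all tested genes passed both thresholds and 22.7% the adjusted p. RAB13, a RAB of tight junctions, had the highest level per length of these genes over both groups and under HDAC8 (57.8 ± 3.86 CPM per kilobase), while under EV it stood at 52.5 ± 2.00, below RAB10, which acts in exocytic traffic, at 56.9 ± 2.02 (SD, n = 3 each). RAB13 had a log2 fold change of 0.14 (edgeR adjusted p = 0.157). RAB15, a regulator of endocytic recycling, had 35.6, 39.8 and 40.5 CPM under EV and 31.8, 26.3 and 27.8 CPM under HDAC8, a log2 fold change of -0.43 (edgeR adjusted p = 0.00405). RAB8B and RAB10, both of exocytic traffic, were lower by the adjusted p with log2 fold changes of -0.23 and -0.16, and the recycling endosome gene RAB11B was higher with 0.19. RAB11B lost the adjusted p with no filter on low counts, with a replicate block, and without EV replicate 1, 2 or 3 or HDAC8 replicate 2 (edgeR adjusted p = 0.0543 to 0.135). RAB10 lost it with the block and without EV replicate 1 or 3 (edgeR adjusted p = 0.0578 to 0.114), and RAB8B without EV replicate 1 or 2 (0.0843 and 0.0529). RAB11B overlaps RAB11B-AS1 on the opposite strand, which had a mean of 40.2 counts and a log2 fold change of 0.67. RAB22A, an endosomal RAB counted with the early endosome genes, was lower by the adjusted p with -0.21, which it did not pass without EV replicate 1 (edgeR adjusted p = 0.0512). RAB40B and RAB40C, which encode adaptors of a ubiquitin ligase, had log2 fold changes of 0.23 and 0.074, and 0 of the 2 passed edgeR's adjusted p, an unadjusted p below 0.05 or DESeq2.

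The remaining 13 RAB GTPase genes were too low to be tested. RAB19 had 0 counts in every library, which allows up to 3 counts in each, and 11 of the 13 had at most 10 counts in every library. RAB33A had 0, 3 and 1 counts under EV and 23, 1 and 2 under HDAC8. RAB37 had 3, 4 and 2 under EV and 14, 1 and 3 under HDAC8, so HDAC8 replicate 1, the deepest library, stood apart for both. It also did so in CPM, which is scaled for depth, with 0.781 for RAB33A against 0.0494 and 0.0862 in HDAC8 replicates 2 and 3. For RAB37 these values were 0.475 against 0.0494 and 0.129, and the reason was not tested. Of the matches that are no GTPases, RAB3IP (Rabin8, an exchange factor for RAB8) had a log2 fold change of -0.13 and RAB5IF of -0.055, and neither passed the test. RAB4B, RAB43 and RAB5IF share their exons with annotated read-through genes, among which estimated counts are divided, so their values are uncertain.

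Each of the 6 called RAB genes lies on a different chromosome. The median log2 fold change of the 10 nearest tested genes, 5 on each side, was -0.078 around RAB3B, -0.091 around RAB3D, -0.062 around RAB39A, -0.21 around RAB20, -0.13 around RAB9B and 0.10 around RAB36. Of these neighbours, 10 around each of the 6 genes, 5 passed both thresholds, where 7.52% of all tested genes did. Among those 5, ELMOD1, 261669 bases from RAB39A, had the largest difference, in the direction of RAB39A. Its log2 fold change was -4.54 (edgeR adjusted p = 0.00186). Near RAB20, the collagen genes COL4A1 and COL4A2 were higher (0.60 and 0.99), opposite to RAB20, as were TTC39A (higher, near RAB3B) and PLPPR2 (lower, near RAB3D) to those genes. IRS2, NAXD and ANKRD10, near RAB20 and below the fold threshold, were lower like RAB20. They had -0.50, -0.48 and -0.35 (edgeR adjusted p = 6.49e-05, 0.00267 and 0.00889).

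Regulators and effectors of RAB3 and related genes were taken as a list of 15 genes, of which 12 were tested. At both thresholds 2 were lower (16.7%) and 0 higher with edgeR and with DESeq2, against the 7.52% of all genes called in either direction. SYTL4 (granuphilin), an effector that links RAB3 and RAB27 on secretory granules to the docking machinery, had 4.36, 5.74 and 4.48 CPM under EV and 1.36, 1.04 and 0.647 CPM under HDAC8. The groups did not overlap, and its log2 fold change was -2.24 ± 0.31 (SE, edgeR adjusted p = 0.000259). RAB3IL1, an exchange factor of the Rabin family, was at 5.11, 4.88 and 6.10 CPM under EV and 3.09, 3.36 and 2.50 CPM under HDAC8, a log2 fold change of -0.85 ± 0.21 (SE, edgeR adjusted p = 0.0125), which was -0.74 without EV replicate 3 (edgeR adjusted p = 0.0647).

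The RAB3 GTPase-activating complex has a catalytic and a non-catalytic subunit. RAB3GAP1, the catalytic subunit, was at 83.8 ± 2.41 and 85.2 ± 3.45 CPM, and RAB3GAP2 at 108 ± 2.00 and 125 ± 3.03 CPM (SD, n = 3 each) under EV and HDAC8. RAB3GAP2 passed the adjusted p with a log2 fold change of 0.21 (edgeR adjusted p = 0.00784). MADD, the main RAB3 exchange factor, and DMXL2, a scaffold that binds MADD and the RAB3 GTPase-activating complex, had log2 fold changes of 0.14 and -0.13, and RABAC1, a RAB acceptor of the Golgi, of -0.033. The active-zone genes RIMS2, RIMS3 and RIMS4 had -0.52, 0.083 and -0.11, and RPH3AL (Noc2) -0.51. Without HDAC8 replicate 1, RIMS2 was at -0.78 (edgeR adjusted p = 0.0489), and without HDAC8 replicate 3, DMXL2 was at -0.15 (edgeR adjusted p = 0.0378). With all libraries, none of these 7 genes passed the adjusted p, and 4 had a mean below 7 CPM in both groups.

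**Figure D5:**
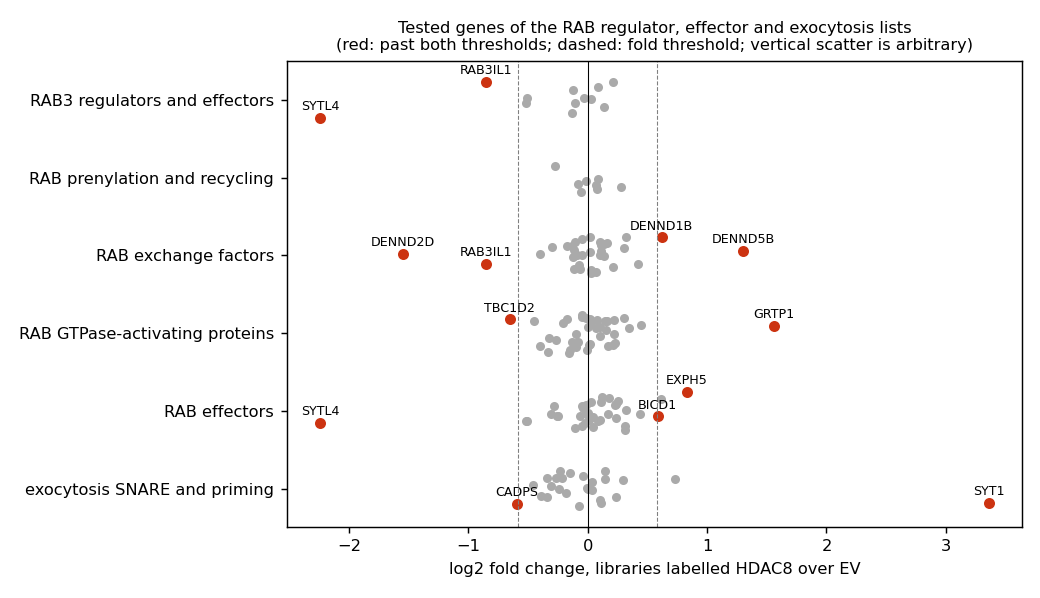
Log2 fold change (horizontal axis, libraries labelled HDAC8 over EV) of each tested gene in 6 lists of RAB regulators, RAB effectors and exocytosis genes, with genes past both thresholds in red and named. SYTL4 at -2.24 and SYT1 at 3.36 lie farthest from 0, and no gene of the prenylation and recycling list passed both thresholds.

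The fusion machinery on which RAB3 proteins act was taken as 32 SNARE, priming and calcium sensor genes, of which 26 were tested. At both thresholds 1 was higher and 1 lower (7.69%, close to the 7.52% of all tested genes). By edgeR's adjusted p alone 10 of the 26 passed, where 22.7% of all tested genes did. Of these, VAMP2, SNAP29, NSF, STX3, SNAP23 and VAMP3 were lower (-0.46 to -0.15) and short of the fold threshold. UNC13B and CADPS2 were higher (0.24 and 0.29), also short of it. SYT1 (synaptotagmin 1), the calcium sensor of fast exocytosis, had 0.650, 0.497 and 0.244 CPM under EV and 5.67, 4.05 and 4.53 CPM under HDAC8, a log2 fold change of 3.36 ± 0.36 (SE, edgeR adjusted p = 3.57e-05). CADPS, a priming factor of dense-core vesicles, fell from 36.7 ± 3.16 to 24.2 ± 0.675 CPM (SD, n = 3 each), a log2 fold change of -0.59 (edgeR adjusted p = 0.000240), which was -0.52 without EV replicate 2.

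The general RAB machinery was taken as 127 genes, of which 118 were tested, 5 were higher and 4 lower (7.63% called, median log2 fold change 0.020), close to the 7.52% and 0.0091 of all tested genes. Of the 8 genes that prenylate RAB proteins or recycle them between membranes and cytosol, 0 passed both thresholds with edgeR or DESeq2. CHML alone had an unadjusted p below 0.05, and it also passed the adjusted p (log2 fold change -0.27, edgeR adjusted p = 0.0193). Among 33 tested exchange factors, DENND5B and DENND1B were higher (1.30 and 0.62) and DENND2D and RAB3IL1 lower (-1.54 and -0.85). DENND2D, an exchange factor for RAB9A and RAB9B, fell from 18.8 ± 0.987 to 6.41 ± 1.06 CPM (SD, n = 3 each; edgeR adjusted p = 4.94e-06). Among 39 tested GTPase-activating proteins, GRTP1 was higher (1.56) and TBC1D2, which acts on RAB7A, lower (-0.65). Among 38 tested effectors, EXPH5 (Slac2-b, a RAB27 effector) and BICD1 (a dynein adaptor for RAB6) were higher (0.83 and 0.59), and SYTL4 was lower. Without HDAC8 replicate 1, DENND1B (0.54), TBC1D2 (-0.50) and BICD1 (0.57) fell short of the fold threshold, as did BICD1 without EV replicate 3 or HDAC8 replicate 2 (0.57 each).

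DENND5B and BICD1 lie close together on the short arm of chromosome 12, at 31382226 to 31591136 and 32106835 to 32383633. The 10 nearest tested genes around DENND5B all had a positive log2 fold change, 9 of them past both thresholds, with a median of 1.10, and of those around BICD1 8 were positive and 5 past both thresholds, with a median of 0.97 and a lowest value of -0.28. The part of these neighbourhoods in the differences of DENND5B and BICD1 was not tested. The RAB GTPase genes of chromosome 12, RAB5B, RAB21 and RAB35, lie elsewhere, at 55973913 and beyond.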

How the data were processed

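RNA was measured in 6 SK-MEL-28 libraries, grouped by their titles. The count table deposited by the authors holds estimated counts that were not normalized, and 5351 to 5685 of 60504 values per library were not whole and were rounded. The study's methods and the submitters' processing notes name Trimmomatic, STAR and RSEM, and the notes give GRCh38. The labels name ribosomal RNA depletion and a directional kit, the methods a TruSeq kit, and the strand setting of the counting is not given in the sources used here. A deposited table with the authors' own fold changes and p-values was not used. The rounded counts of the 16195 genes kept by filterByExpr were tested without a block by the quasi-likelihood test of edgeR 4.0.16 under R 4.3.3, with TMM scaling and p adjusted over all of them. Each standard error was obtained from the log2 fold change and its F statistic. The lowest detectable level covers counting error only, while the SDs and standard errors reflect the spread between libraries. Positions and transcript lengths are from GENCODE 44, matched by identifier (56558 of 60504, including all 63 members), and promoter windows from RefSeq. Of the RAB genes 49 had a promoter entry, and those without one included RAB20 and RAB36.

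Members and lists were chosen with earlier results of these data known. Named genes were all RAB3 genes, RAB genes past both thresholds, the most abundant member of each site of action, tested genes of the RAB3 list, at most 6 called genes of each other list, HDAC8, RAB3IP and RAB5IF. Other genes, such as the 12 RAB genes past the adjusted p alone, were named after their values were seen. The alternatives were DESeq2 1.42.0, upper-quartile normalization, other filters and thresholds, glmTreat, the replicate number as a block and each replicate left out. The scripts were tested on simulated counts.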

Additional observations from a re-analysis of the deposited data

How the results depend on the processing

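RAB3B and RAB3D passed both thresholds in every fit in which they were tested, with log2 fold changes of -4.89 to -4.15 and 3.29 to 3.65, and RAB3A passed them in none (0.092 to 0.36). RAB3B and RAB39A, each below 10 counts in some library, were not tested when at least 10 counts were required in every library, which left 3 lower RAB genes. RAB36 lost its call with upper-quartile normalization (-0.58) and in 3 of the 6 fits that left out a replicate. Without a fold threshold 4 RAB genes were higher and 14 lower, with a fold threshold of 1 on the log2 scale there were 3 lower, and with glmTreat 1 lower, while leaving out a replicate gave 4 or 5 lower. For all genes the counts were 1790 higher and 1891 lower without a fold threshold, 391 and 309 with the threshold of 1, and 316 and 237 with glmTreat. For the 127 regulator and effector genes they were 16 and 14, 2 and 2, and 1 and 2, with 3 to 5 higher (3 without HDAC8 replicate 1) and 3 to 4 lower when a replicate was left out. For the 47 RAB3 regulator and exocytosis genes (1 higher, 3 lower), 4 were higher and 9 lower without a fold threshold, 1 was lower with the threshold of 1 and with glmTreat, and 2 to 5 were lower when a replicate was left out (5 without HDAC8 replicate 1). With at least 10 counts in every library 0 of these were higher with edgeR, because SYT1 was not tested. The median of the RAB genes was -0.011 with no filter on low counts and -0.076 to -0.040 when a replicate was left out (-0.076 without EV replicate 3 and -0.069 without HDAC8 replicate 1). Among the named genes for which each replicate was left out in turn, those without a call that changed sign were RAB40C (-0.047 to 0.16), RAB5IF (-0.12 to 0.024), RAB3GAP1 (-0.0035 to 0.049), RABAC1 (-0.15 to 0.041), RIMS3 (-0.19 to 0.23), RIMS4 (-0.48 to 0.43) and HDAC8 (-0.16 to 0.080). What caused these shifts was not tested.

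A replicate block left the same 6 RAB genes called, RAB3B with -4.43 and RAB3D with 3.44, and 16 of the 18 RAB genes passed the adjusted p (RAB10 and RAB11B did not). The numbers share no origin in the labels, and same-numbered libraries did not deviate together (correlations of -0.042, -0.11 and -0.083 across genes). With 3 libraries per group and few reads on RAB39A, RAB3C and the untested RAB genes, small differences were not detectable at this depth.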
